A study of Mus musculus with 6 samples.

Results

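A set of 10 long noncoding RNAs was followed in mouse spinal cord after deletion of Sox2 from astrocytes. The members were chosen by symbol, as widely studied nuclear and imprinted RNAs: Sox2ot, Malat1, Neat1, Meg3, Rian, Mirg, Miat, H19, Kcnq1ot1 and Peg13. Of these 10, 8 had a row among the 35275 genes of the deposited tables, and all 8 were among the 16137 genes that passed the filter on low counts. Sox2ot, whose span contains Sox2, and Peg13 were not analysed here.

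Long noncoding RNAs are transcribed and often spliced like messenger RNAs but encode no known protein, and many act in the nucleus. Malat1 sits in nuclear speckles, and Neat1 is the scaffold around which paraspeckles assemble. Meg3, Rian and Mirg are made from the maternal chromosome of the Dlk1-Dio3 imprinted cluster, where Rian hosts small nucleolar RNAs and Mirg hosts microRNAs.

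Poly(A) RNA of whole spinal cord from C57BL/6 mice was sequenced in 3 Sox2 cKO mice and 3 Ctrl mice, 1 library each. Sox2 cKO mice carried mGfap-Cre and both floxed Sox2 alleles (mGfap-Cre:Sox2fl/fl). The Cre line, 77.6, expresses the recombinase from the mouse Gfap promoter, which is active in most astrocytes of brain and cord. The sample labels give mGfap-Cre:Sox2+/+ for Ctrl, the series design gives mGfap-Cre or Sox2fl/fl, and the study's methods give littermates with the floxed allele and no Cre, so whether the Ctrl mice carried Cre is not settled. Age is postnatal day 90 in the labels and day 80 in the protocol. Each group held both sexes per the study's methods, and the columns do not give the sex of a library, which was no covariate. The deposited columns carry numbers only. After the mouse numbers the study uses, Ctrl was read from libraries 2, 4 and 6, Sox2 cKO from libraries 1, 3 and 5, and values are given in that order throughout. Group means made from these columns matched the means listed under the group names for 1999 of 1999 genes within a relative tolerance of 0.0001, and for 0 genes with the groups exchanged.

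Library totals were between 21507911 and 28392184 counts. Sox2, which encodes the deleted transcription factor, had 19.9, 14.8 and 29.5 CPM (counts on a common library size, scaled by TMM) in Ctrl. It had 3.16, 2.69 and 2.98 CPM in Sox2 cKO, a log2 fold change of -2.86 ± 0.24 (SE), with an adjusted p of 0.00096 by edgeR's quasi-likelihood test. The cord identity was checked on HOX genes, whose summed level was 591.0 to 653.0 CPM in the 6 libraries, against 2.80 to 4.98 CPM for forebrain transcription factors. Of 10 astrocyte markers 5 were lower and 0 higher, with sums of 7776 to 9934 CPM in Ctrl and 5695 to 5917 in Sox2 cKO. Over all genes tested 12.4% were called lower and 12.2% higher. Of 6 oligodendrocyte precursor markers 4 were lower, with sums of 450.1 to 515.5 CPM in Ctrl and 375.6 to 424.7 in Sox2 cKO. Of 10 neuron markers 0 were higher and 1 was lower, with sums of 10720 to 11190 CPM in Ctrl and 10430 to 10800 in Sox2 cKO. After the length correction described below, 2 astrocyte, 3 precursor and 0 neuron markers were lower, and 1 neuron marker was higher. Over all genes 1129 of 16137 were then lower and 976 higher. In whole tissue, fewer cells of a type and less RNA per cell cannot be told apart, and the part of these shifts in the results below was not tested.

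RefSeq sequences on GRCm38.p6, the build of mm10, show what the noncoding RNAs of the Dlk1-Dio3 cluster carry. RefSeq places 20 microRNA hairpins with 38 mature microRNAs inside the spans of the 10 genes. Mirg holds 14 of these hairpins, Rian 3, and Meg3, H19 and Sox2ot 1 each. The following mature microRNAs are shown as the cargo of each host, 5′ to 3′, with the seed (bases 2 to 8), which pairs with target messenger RNAs, in capitals. The Meg3, Rian and Mirg hairpins lie on the plus strand and Mir675 on the minus strand.
mmu-miR-770-3p, chr12:109563744-109563765: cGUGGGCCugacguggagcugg
mmu-miR-370-3p, chr12:109618305-109618326: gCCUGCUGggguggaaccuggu
mmu-miR-134-5p, chr12:109734145-109734166: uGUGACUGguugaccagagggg
mmu-miR-485-3p, chr12:109734946-109734967: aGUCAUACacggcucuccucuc
mmu-miR-377-3p, chr12:109740553-109740574: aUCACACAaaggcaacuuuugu
mmu-miR-453, chr12:109735669-109735692: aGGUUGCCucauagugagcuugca
mmu-miR-496a-5p, chr12:109739132-109739152: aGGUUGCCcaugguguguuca
mmu-miR-410-3p, chr12:109743764-109743784: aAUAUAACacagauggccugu
mmu-miR-675-5p, chr7:142577112-142577133: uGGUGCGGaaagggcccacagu
The first is hosted by Meg3, miR-370-3p by Rian, the next 6 by Mirg and miR-675-5p by H19. In GENCODE M21 the hairpins of miR-370, miR-453 and miR-496a share 0 bases with the exons of their hosts. Among the 38, miR-453 and miR-496a-5p shared the seed GGUUGCC, and no other seed occurred more than once. Poly(A) libraries count the host transcripts and do not measure mature microRNAs, so every value below is that of the host.

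The promoters of 6 of the 10 genes were in the RefSeq set (250 bases before to 50 after each start), and 4 motifs were searched on both strands. These were ACAAAG and ACAATG, forms of the core that SOX proteins bind, TGACGTCA, the cAMP response element, and TATAAA, the TATA box. They occurred in 18.7%, 12.6%, 1.79% and 13.6% of 32851 promoters of this length. Meg3 and Miat held a match and are printed with it in capitals, and Rian is printed because it had none of the 4 and, as given below, changed the most in its cluster.
Meg3 promoter, chr12:109540746-109541045, plus strand: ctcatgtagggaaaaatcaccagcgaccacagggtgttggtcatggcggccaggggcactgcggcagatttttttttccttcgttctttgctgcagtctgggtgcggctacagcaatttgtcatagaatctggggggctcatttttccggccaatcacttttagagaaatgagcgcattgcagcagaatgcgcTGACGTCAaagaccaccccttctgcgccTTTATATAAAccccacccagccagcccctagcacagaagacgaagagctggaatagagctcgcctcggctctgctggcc
Miat promoter, chr5:112228899-112229198, minus strand: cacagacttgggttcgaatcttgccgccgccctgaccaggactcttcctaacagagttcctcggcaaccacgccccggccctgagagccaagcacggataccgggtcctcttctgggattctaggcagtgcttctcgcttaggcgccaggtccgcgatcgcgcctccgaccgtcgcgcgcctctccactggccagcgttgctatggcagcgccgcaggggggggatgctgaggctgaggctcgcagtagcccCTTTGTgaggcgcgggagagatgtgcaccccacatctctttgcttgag
Rian promoter, chr12:109603695-109603994, plus strand: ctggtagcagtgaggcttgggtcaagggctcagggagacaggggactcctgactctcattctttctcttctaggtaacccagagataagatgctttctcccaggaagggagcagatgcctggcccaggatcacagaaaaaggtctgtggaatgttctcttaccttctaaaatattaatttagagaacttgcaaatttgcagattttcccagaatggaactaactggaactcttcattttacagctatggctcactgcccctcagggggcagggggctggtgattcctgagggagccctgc
The Meg3 promoter held TGACGTCA 57 bases before the start and TATAAA on both strands in an overlapping run, and the second annotated Meg3 start held 0 of the 4 motifs. The Miat promoter held ACAAAG on the reverse strand, 2 bases past the start. Malat1, Mirg and Kcnq1ot1 held 0 matches in this window. The Mirg window, chr12:109734731-109735030, lies wholly inside the GENCODE span of Mirg, chr12:109729764-109749460. Its result covers sequence within the gene and not the bases before the GENCODE start, which were not searched. The Miat window also lies inside the GENCODE span of its gene, chr5:112213228-112229395. A match of letters does not show that a factor binds there.

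Malat1, Kcnq1ot1 and H19 had log2 fold changes below zero (-0.57, -0.50 and -0.36) without a call, and 0 of the 8 members were called lower. Rian, Mirg, Neat1 and Miat were called higher in Sox2 cKO cord. These 4 were called at an adjusted p below 0.05 by edgeR, where 12.2% of all genes tested were called higher, 12.4% lower and 24.6% in either direction. DESeq2 called the same 4 members, against 8.13% called higher of the 24442 genes with a count. That base is larger than the 16137 genes edgeR tested, so the 2 shares are not directly comparable. The 3 libraries of each group did not overlap for the same 4 members, and for 44.7% of all genes tested. The median log2 fold change was 0.306 over the 8 members and 0.018 over all genes tested. The 8 members took 0.433%, 0.473% and 0.566% of the counts in Ctrl, and 0.537%, 0.508% and 0.499% in Sox2 cKO. The groups overlapped in this share, and its mean was higher by 0.0243 percentage points in Sox2 cKO (exact permutation p = 0.6, two-sided), where 3 libraries against 3 cannot give a p below 0.1.

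**Figure D1:**
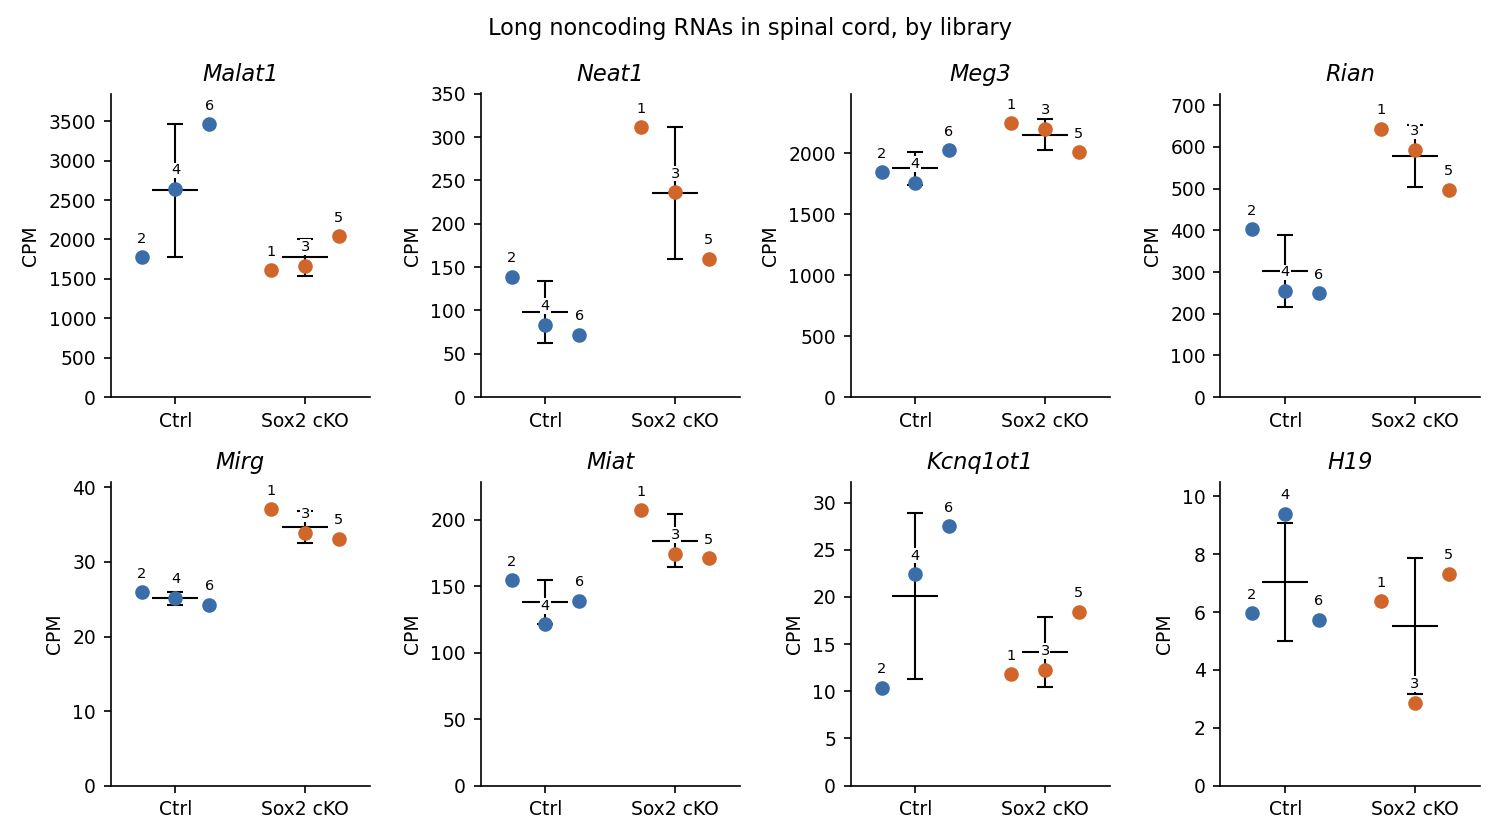
Level of 8 long noncoding RNAs in each library, in CPM on TMM-scaled library sizes. Points are libraries with their numbers (blue Ctrl, orange Sox2 cKO), and bars are the group mean and SD (n = 3). The points of Neat1, Rian, Mirg and Miat do not overlap between groups, and those of Malat1, Meg3, Kcnq1ot1 and H19 do.

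Rian (ENSMUSG00000097451, chr12:109603940-109661716, plus strand), the host of small nucleolar RNAs, was the member of the imprinted cluster with the largest change. It had 403.0, 254.5 and 249.5 CPM in Ctrl and 643.3, 593.8 and 496.9 CPM in Sox2 cKO. Every Sox2 cKO library was above every Ctrl library, and Ctrl library 2 lay closest to the Sox2 cKO group. The mean went from 302.3 ± 87.2 to 578.0 ± 74.5 CPM (SD, n = 3), a fold of 1.91 and a log2 fold change of 0.94 ± 0.18 (SE), with an adjusted p of 0.013 by edgeR.

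Mirg (ENSMUSG00000097391, chr12:109729764-109749460, plus strand), the microRNA host at the far end of the cluster, had the smallest spread in Ctrl, on a log2 scale, of the 8 members. In Sox2 cKO its spread was nearly equal to that of Meg3. Mirg had 25.9, 25.2 and 24.2 CPM in Ctrl and 37.1, 33.9 and 33.1 CPM in Sox2 cKO. All 3 Sox2 cKO libraries were above all 3 Ctrl libraries. The fold was 1.38, with a log2 fold change of 0.47 ± 0.09 (SE) and an adjusted p of 0.013 by edgeR. Of the Mirg microRNAs printed above, the hairpins of miR-134, miR-485, miR-377 and miR-410 overlap Mirg exons in GENCODE M21. Those of miR-453 and miR-496a share 0 bases with them.

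Meg3 (ENSMUSG00000021268, chr12:109541001-109571726, plus strand), the first gene of this run and a growth-restraining RNA, had 1845, 1759 and 2026 CPM in Ctrl. It had 2249, 2201 and 2008 CPM in Sox2 cKO. Sox2 cKO library 5 lay below Ctrl library 6, so the groups overlapped. The log2 fold change was 0.20 ± 0.09 (SE) with an adjusted p of 0.14 by edgeR, and the call depended on the scaling. With library sizes taken as total counts, the median of all genes moved by 0.099 on the log2 scale, and Meg3 stood at 0.30 with an adjusted p of 0.038.

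Ratios among the 3 maternal RNAs were taken within each library. Rian counts were 0.218, 0.145 and 0.123 of Meg3 counts in Ctrl and 0.286, 0.270 and 0.247 in Sox2 cKO. This ratio did not overlap between groups, with a log2 difference of 0.77 that does not depend on library scaling. Mirg counts were 0.0141, 0.0143 and 0.0120 of Meg3 counts in Ctrl and 0.0165, 0.0154 and 0.0165 in Sox2 cKO, again without overlap, with a log2 difference of 0.27. For both ratios the exact permutation p was 0.1 (two-sided), the smallest that 3 against 3 allows. These ratios were not corrected for gene length, and after the length correction described below the log2 fold change was 0.51 for Mirg and 0.65 for Meg3, so the order of Mirg and Meg3 turned, while Rian, at 1.23, stayed above Meg3. The ratio of Mirg to Rian overlapped between groups, with a log2 difference of -0.50 (exact permutation p = 0.2). The genes lie 32213 bases (Meg3 to Rian) and 68047 bases (Rian to Mirg) apart on the same strand.

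**Figure D2:**
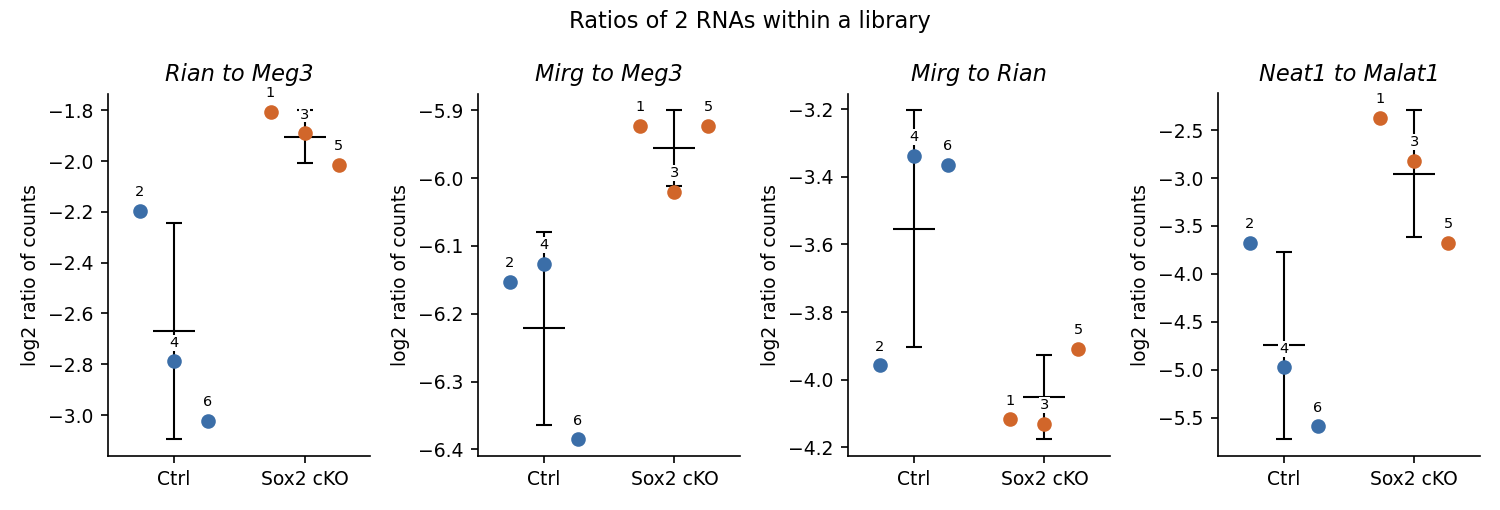
Log2 ratio of the counts of 2 RNAs within each library, for Rian to Meg3, Mirg to Meg3, Mirg to Rian and Neat1 to Malat1. Points are libraries with their numbers, and bars are the group mean and SD (n = 3). The points of the first 2 ratios do not overlap between groups, and in the other panels Ctrl library 2 falls at or beyond Sox2 cKO library 5.

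Neat1 (ENSMUSG00000092274, chr19:5824708-5845478, minus strand), the paraspeckle scaffold, rose the most of the 8 members. It had 139.2, 83.8 and 71.8 CPM in Ctrl and 311.6, 236.6 and 159.6 CPM in Sox2 cKO. The groups did not overlap, and the gap was narrow between Ctrl library 2 and Sox2 cKO library 5. The mean went from 98.3 ± 36.0 to 235.9 ± 76.0 CPM (SD, n = 3), a fold of 2.40. The log2 fold change was 1.26 ± 0.27 (SE) with an adjusted p of 0.014 by edgeR, rank 155 from the top of 16137 genes.

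Neat1 is held in paraspeckles by RNA-binding proteins, and 17 genes for such proteins were tested. Of these, 2 were higher, 1 was lower and 14 were not called, against 12.2% higher and 12.4% lower over all genes tested. The median log2 fold change of the 17 was 0.088. Ewsr1, which encodes an RNA-binding protein, went from 106.6 ± 17.7 to 151.0 ± 12.1 CPM (SD, n = 3). Its log2 fold change was 0.50 ± 0.12 (SE) with an adjusted p of 0.018 by edgeR. Tardbp, which encodes the RNA-binding protein TDP-43, had 0.29 ± 0.09 with an adjusted p of 0.045. Smarca4, which encodes the BRG1 subunit of SWI/SNF chromatin remodelling complexes, fell by 0.52 ± 0.11 on the log2 scale with an adjusted p of 0.015. With total count scaling 6 were higher and 1 lower, and with the length correction described below 5 were higher and 1 lower.

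Malat1 (ENSMUSG00000092341, chr19:5795690-5802672, minus strand), the speckle RNA 22035 bases from Neat1, was the most abundant member per length in both groups. By counts, Meg3 was above Malat1 in Ctrl library 2 and in Sox2 cKO libraries 1 and 3, and below it in the other libraries. Malat1 had 1776, 2640 and 3462 CPM in Ctrl and 1607, 1667 and 2040 CPM in Sox2 cKO. Ctrl library 2 lay among the Sox2 cKO libraries, and the Ctrl values spread over a wider range than the Sox2 cKO values. The log2 fold change was -0.57 ± 0.20 (SE) with an adjusted p of 0.062 by edgeR. Without Ctrl library 2 it was -0.79 with an adjusted p of 0.0021. Without a filter on low counts it was -0.56 with an adjusted p of 0.015, so the call turned on that library and on that filter.

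The ratio of Neat1 to Malat1 counts was 0.0784, 0.0317 and 0.0207 in Ctrl and 0.194, 0.142 and 0.0782 in Sox2 cKO. Ctrl library 2 and Sox2 cKO library 5 were nearly equal, and the groups overlapped by that pair alone. The log2 difference was 1.79 with an exact permutation p of 0.2 (two-sided). Malat1 and the long form of Neat1 end without a poly(A) tail, and how completely the poly(A) selection captured them was not tested. An RNA integrity number above 6.8 is stated for all samples in the labels and a higher minimum in the study's methods, with no value per library.

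Miat (ENSMUSG00000097767, chr5:112213228-112229395, minus strand), a nuclear RNA of neurons also known as Gomafu, had 154.4, 121.4 and 139.1 CPM in Ctrl. It had 207.3, 174.6 and 171.2 CPM in Sox2 cKO. All Sox2 cKO libraries were above all Ctrl libraries. The fold was 1.33, with a log2 fold change of 0.41 ± 0.11 (SE) and an adjusted p of 0.025 by edgeR. The ratio of Miat to Malat1 overlapped between groups, with a log2 difference of 0.94 and an exact permutation p of 0.2 (two-sided).

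H19 (ENSMUSG00000000031, chr7:142575529-142578143, minus strand), the maternal host of miR-675, is a fetal RNA that is low in adult tissue. It had 133, 226 and 119 counts in Ctrl and 145, 84 and 194 counts in Sox2 cKO. The groups overlapped widely, with a log2 fold change of -0.36 ± 0.32 (SE) and an adjusted p of 0.42 by edgeR. Its paternally expressed neighbour Igf2, which encodes a fetal growth factor, had 279.1, 254.1 and 85.8 CPM in Ctrl and 336.0, 233.7 and 231.1 CPM in Sox2 cKO. The low value in Ctrl library 6 went with the lowest sum of 7 meningeal markers, 138.6 CPM, against 306.9 in the highest Ctrl library and 235.5 to 279.3 in Sox2 cKO. Of those 7 markers 0 were called by edgeR, and their part in the Igf2 values was not tested. Igf2 had a log2 fold change of 0.37 ± 0.34 (SE) and an adjusted p of 0.45.

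Kcnq1ot1 (ENSMUSG00000101609, chr7:143203458-143296549, minus strand) is a paternally expressed antisense RNA inside Kcnq1 that silences neighbours on its own chromosome. It had 10.4, 22.4 and 27.5 CPM in Ctrl and 11.8, 12.3 and 18.4 CPM in Sox2 cKO. Ctrl library 2 was the lowest of all 6 libraries and Ctrl libraries 4 and 6 were the highest. The log2 fold change was -0.50 ± 0.30 (SE) with an adjusted p of 0.24 by edgeR. It was -0.81 with an adjusted p of 0.0084 without Ctrl library 2. The ratio of Kcnq1ot1 to Kcnq1 counts was between 12.4 and 22.8 in the 6 libraries, with a log2 difference of -0.04 (exact permutation p = 0.8, two-sided). The exons of these antisense partners share 121 bases. The kit kept strand, and whether the counting used it is not stated in the sources used here.

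Levels between genes were compared per length, as FPKM. In Ctrl, Malat1 had 361.1 ± 107 FPKM (SD, n = 3), Meg3 124.5 ± 7.58, Rian 36.3 ± 11.5 and Miat 14.6 ± 2.01, and no neighbours in this order overlapped. Mirg followed at 6.35 ± 0.382, Neat1 at 4.60 ± 1.81, H19 at 2.97 ± 0.857 and Kcnq1ot1 at 0.228 ± 0.0954. Mirg overlapped Neat1, and Neat1 overlapped H19. Malat1 ranked 129 and Kcnq1ot1 15730 of the 16137 genes tested by mean FPKM, so the members cover nearly the whole range of levels. In Sox2 cKO the order was the same for the first 4, with Malat1 at 261.9 ± 29.1 and Rian at 74.0 ± 11.1 FPKM (SD, n = 3). Neat1, at 11.8 ± 4.05 FPKM, then stood above Mirg, at 9.40 ± 0.781, with overlapping libraries. These orders rest on the lengths behind the FPKM values. For Rian the length was 8089 bases, against 18234 exon bases in GENCODE M21, and for Mirg 3822 against 7292. The order with M21 lengths was not computed.

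Most members are long, and long genes were called lower more often than higher in Sox2 cKO. The length behind the FPKM values was 84395 bases for Kcnq1ot1, 20771 for Neat1, 14548 for Meg3, 9163 for Miat, 8089 for Rian, 6983 for Malat1, 3822 for Mirg and 2286 for H19. With the genes tested in 5 groups of equal size by length, the 6 longest members were in the longest group, those from 4869 bases, where 56 genes were higher and 1161 lower and the median log2 fold change was -0.252. Neat1, Rian and Miat were thus among 56 of 3228 genes called higher in that group. Among the 1183 genes at least as long as Malat1, 17 were higher and 585 lower. The longest group minus the shortest, as a median log2 deviation from the mean of all libraries, was 0.051, 0.387 and 0.343 in Ctrl. It was -0.419, -0.179 and -0.186 in Sox2 cKO, so the trend separated the groups and was weakest in Ctrl library 2.

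After a correction of every library for its trend of counts with length, 5 members were called higher and 0 lower, against 6.05% of all genes called higher. The added member was Meg3, at a log2 fold change of 0.65 ± 0.13 (SE) and an adjusted p of 0.020 by edgeR. Neat1 stood at 1.75 with an adjusted p of 0.024, Rian at 1.23 with 0.019, Miat at 0.76 with 0.024 and Mirg at 0.51 with 0.018. Malat1 stood at -0.29 with an adjusted p of 0.26. Kcnq1ot1 changed sign, to 0.36 with an adjusted p of 0.16. Its 84395 bases are near the upper end of the lengths tested, 106824 bases. How well the trend is known at the lengths of Kcnq1ot1, Neat1 and Meg3 was not tested. Whether the trend belongs to the libraries or to the genotype cannot be told apart.

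**Figure D3:**
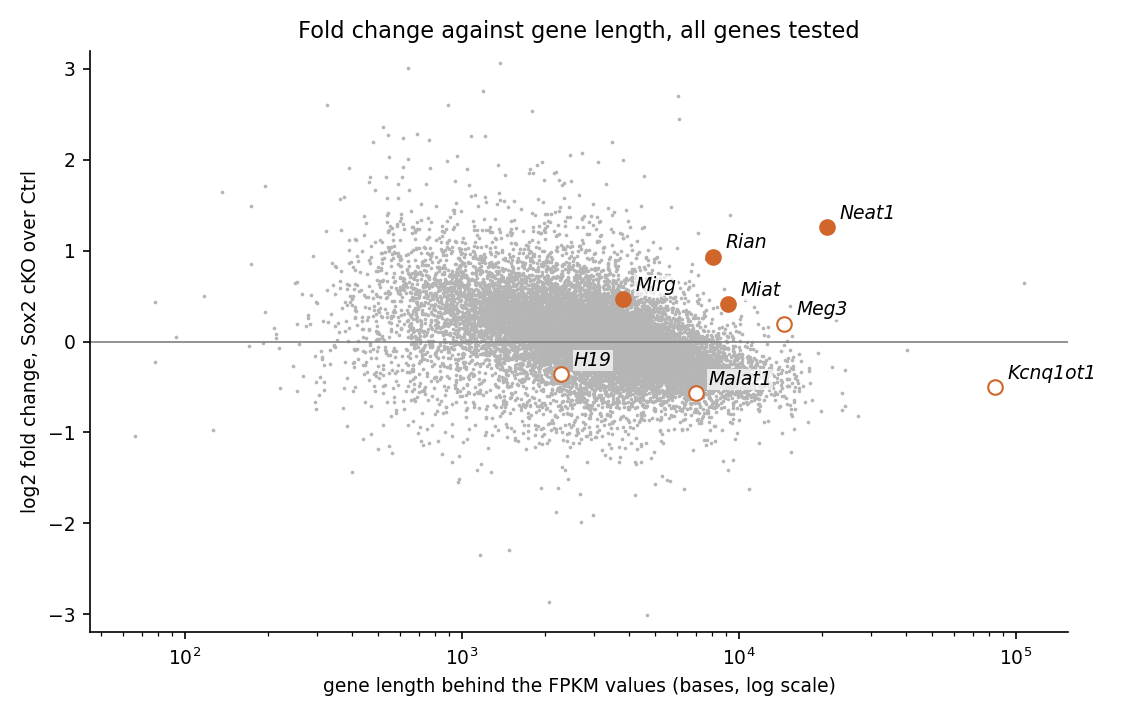
Log2 fold change (Sox2 cKO over Ctrl) against gene length in bases on a log axis, for all genes tested (grey; 2 genes beyond 3.2 on the vertical axis are not drawn). Members are orange, filled where the adjusted p is below 0.05. Neat1, Rian and Miat lie above most genes of their length, and Malat1 lies within them.

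**Figure D4:**
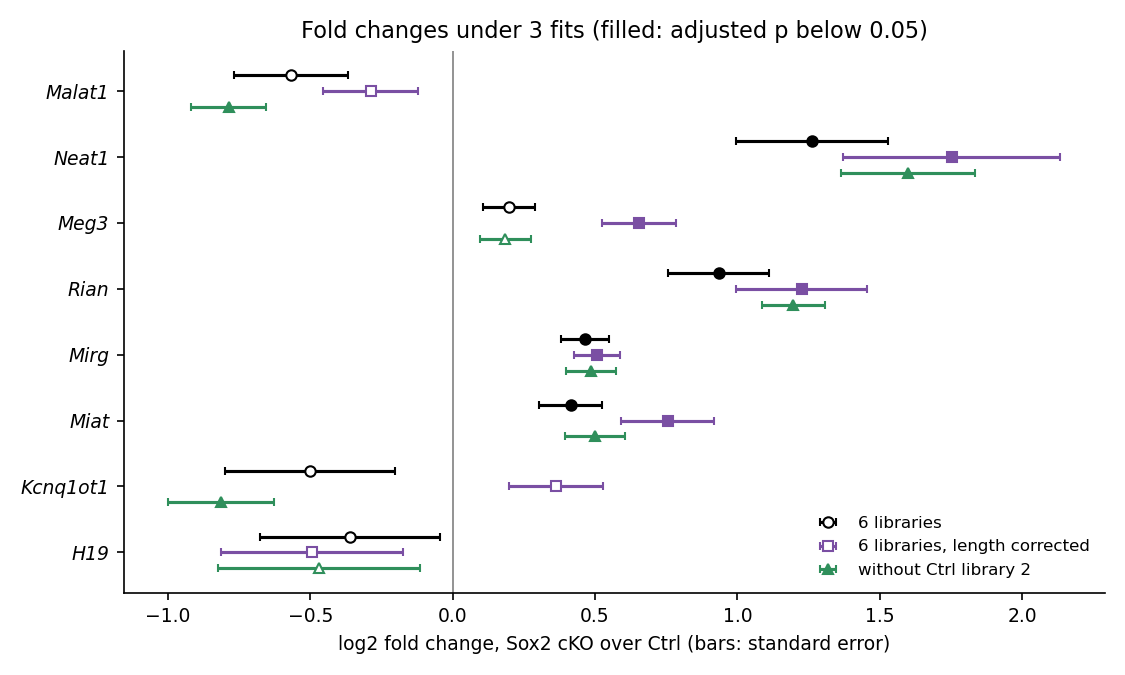
Log2 fold change (Sox2 cKO over Ctrl) of 8 long noncoding RNAs with standard errors, from the fit of 6 libraries (circles), the fit corrected for gene length (squares) and the fit without Ctrl library 2 (triangles), filled where the adjusted p is below 0.05. Neat1, Rian, Mirg and Miat are filled in all 3 fits, and Kcnq1ot1 is on opposite sides of zero. The other fits that left out a library are not drawn, and edgeR called 0 members without Ctrl library 4 or Sox2 cKO library 1.

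Ctrl library 2 was the Ctrl library nearest to the Sox2 cKO mean for Malat1, Neat1, Rian, Mirg, Miat and Kcnq1ot1, 6 of the 8 members, and for 89.6% of the 3970 genes called. Without it, edgeR called 6 members, 4 higher and Malat1 and Kcnq1ot1 lower, against 18.3% and 18.6% of all genes. Without Ctrl library 4 edgeR called 0 members and 26 genes in all (0.159%), and 5 members had an unadjusted p below 0.05. Without Sox2 cKO library 1 it called 0 members and 8 genes in all (0.0485%), and 4 members had an unadjusted p below 0.05. DESeq2 called 2 members without Ctrl library 4 and 1 without Sox2 cKO library 1. It called 8.19% of 24115 and 9.7% of 24136 genes with a count, a larger base than that of edgeR. The fold changes of the 4 called members kept their sign, with 1.01 to 1.60 for Neat1, 0.82 to 1.20 for Rian, 0.42 to 0.50 for Mirg and 0.32 to 0.50 for Miat over the 6 edgeR fits that each left out a library. Miat had an adjusted p of 0.071 without Ctrl library 6 and of 0.059 without Sox2 cKO library 3 by edgeR. By DESeq2, Neat1 was not called without Ctrl library 4, Ctrl library 6, Sox2 cKO library 1 or Sox2 cKO library 3, with adjusted p-values of 0.089, 0.070, 0.099 and 0.074. Rian had an adjusted p of 0.054 by DESeq2 without Sox2 cKO library 1.

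The genes around the members were called in both directions, in shares that depended on the scaling. Of 60 listed neighbours 52 were tested, 8 were higher and 7 lower, against 12.2% and 12.4% of all genes tested. Sox2 itself is on this list and is 1 of the 7 lower, a fall fixed by the deletion. It stays on the list in the splits below. The median log2 fold change of the neighbours was 0.053. The split was 12 higher and 5 lower with total count scaling, 11 and 4 with limma on log2 FPKM, and 4 and 5 with the length correction. By DESeq2 it was 0 higher and 5 lower without Ctrl library 4, 0 and 4 without Ctrl library 6, and 0 and 6 without Sox2 cKO library 1. Of 7 tested genes of the Dlk1-Dio3 list 0 were higher and 1 was lower. Dlk1, the paternally expressed gene for a Notch ligand homologue, had 72.2, 64.1 and 61.2 CPM in Ctrl and 73.2, 81.5 and 74.1 CPM in Sox2 cKO. These values did not overlap, but by a narrow gap, and the log2 fold change was 0.21 ± 0.09 (SE) with an adjusted p of 0.095 by edgeR. It was 0.32 with an adjusted p of 0.035 after the length correction. Dio3, a deiodinase gene at the other end, had 0 or 1 count in each library and was not tested. Yy1, which encodes a zinc finger factor, fell by 0.39 ± 0.10 on the log2 scale with an adjusted p of 0.024.

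Around Peg13, an intronic RNA of Trappc9 that is itself not analysed here, 3 of 5 neighbours were lower and 1 was higher. Over all genes tested 12.4% were lower and 12.2% higher. Kcnk9, the imprinted gene for the potassium channel TASK-3, had 24.1, 39.1 and 32.5 CPM in Ctrl and 10.5, 18.5 and 17.6 CPM in Sox2 cKO. The 3 Sox2 cKO values were all below the Ctrl values, with a log2 fold change of -1.03 ± 0.22 (SE) and an adjusted p of 0.014 by edgeR. Ago2, which encodes the small-RNA-guided Argonaute protein, fell by 0.57 on the log2 scale, and Trappc9, for a vesicle tethering subunit, fell by 0.36, both with an adjusted p of 0.016. Chrac1, for a chromatin accessibility subunit, was higher by 0.56 with an adjusted p of 0.025. After the length correction Ago2 and Chrac1 were not called, at -0.12 with an adjusted p of 0.21 and at 0.42 with 0.061.

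Against 12.2% of all genes tested, 3 of the other 6 listed genes in the region around Sox2 and Sox2ot were higher. These were Ttc14 at a log2 fold change of 0.42, Atp11b, for a phospholipid flippase, at 0.41 and Dnajc19, for a mitochondrial chaperone, at 0.36, with adjusted p-values of 0.039, 0.027 and 0.036 by edgeR. Next to Malat1 and Neat1, Frmd8 fell by 0.26 with an adjusted p of 0.035 and Dpf2 was higher by 0.30 with an adjusted p of 0.035, among 9 tested. Next to Miat, Tfip11, for a splicing factor, fell by 0.30 with an adjusted p of 0.033. Cryba4, a crystallin gene with a mean of 13.5 counts, was higher by 1.49 with an adjusted p of 0.047. Mrpl23, beside H19, was higher by 0.40 with an adjusted p of 0.025, and Tssc4, near Kcnq1ot1, by 0.28 with 0.041. Kcnq1, a potassium channel gene, had -0.43 with an adjusted p of 0.35, and Cdkn1c, the imprinted gene for the cell cycle inhibitor p57, had -0.05 with 0.79. After the length correction Frmd8, Cryba4, Mrpl23 and Tssc4 were not called, and 2 genes of the Sox2 region were higher. Without Ctrl library 4, Ctrl library 6 or Sox2 cKO library 1, edgeR called 0 of the 52 or 53 neighbours tested higher.

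**Figure D5:**
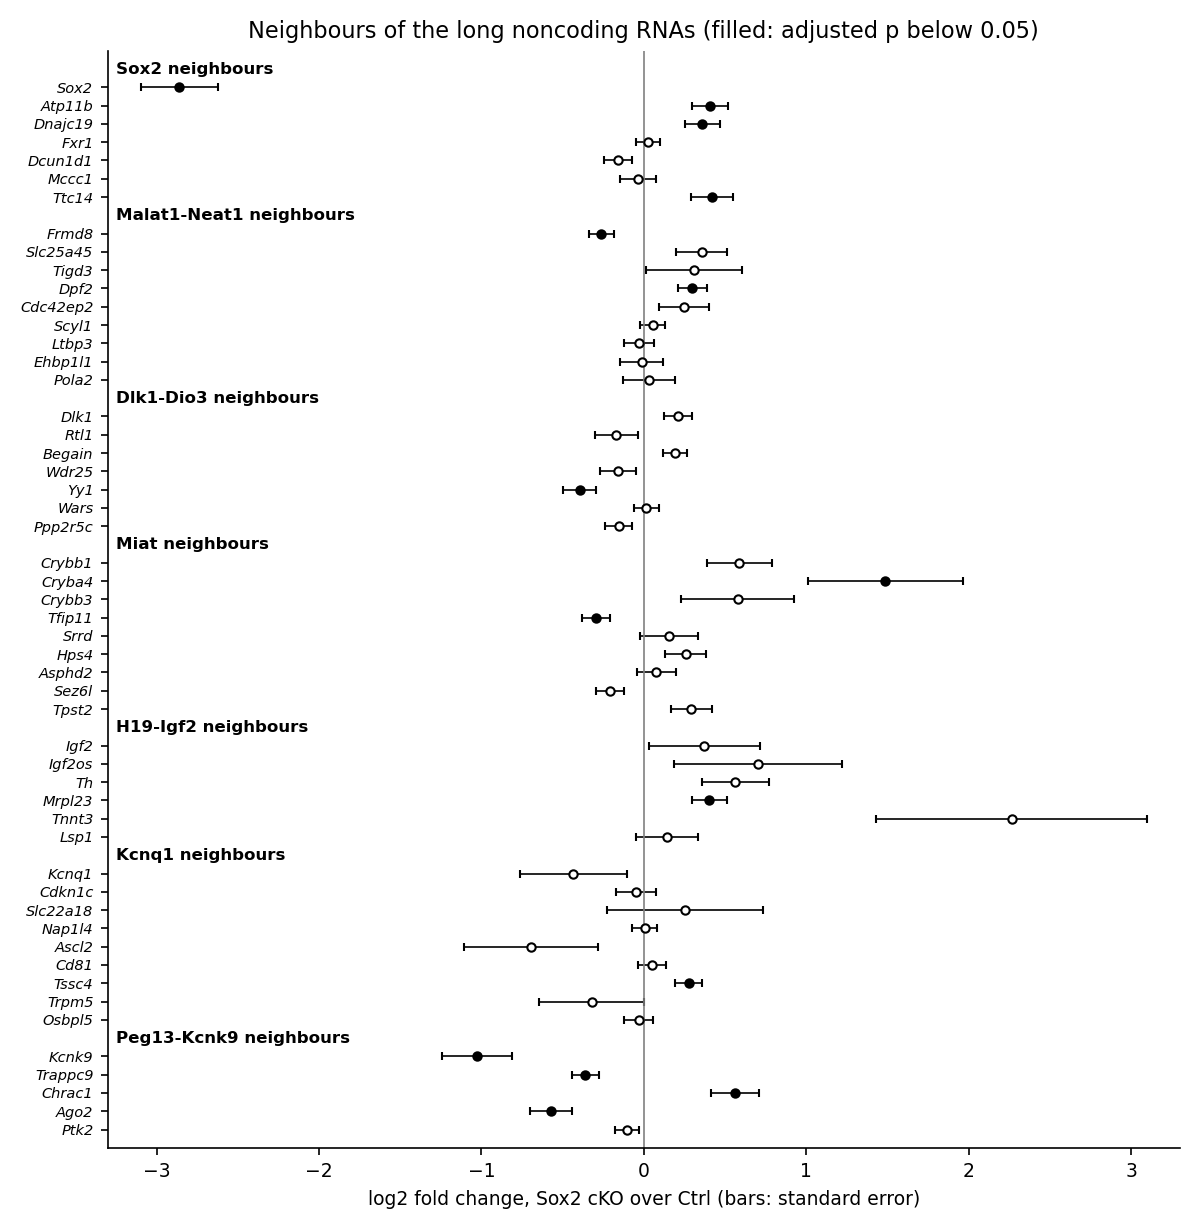
Log2 fold change (Sox2 cKO over Ctrl) of the 52 tested neighbours of the long noncoding RNAs, grouped by locus, with standard errors. Filled points have an adjusted p below 0.05. Sox2, the deleted gene, stands at -2.86 and Kcnk9 at -1.03, and most others lie near zero.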

How the data were processed

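Poly(A) RNA of whole cord was sequenced from 3 mice per group. The read counts per gene were deposited by the authors without normalization, and the submitters' processing notes name CASAVA, STAR 2.5, HTSeq 0.6.1 and DESeq 2.1.6.3. The FPKM values were made by the authors from these counts, gene lengths and library totals. The annotation release and the strand setting of the counting are not given in the sources used here. Single-end reads were aligned to mm10.

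The columns carry mouse numbers and no replicate numbers. Columns of per-sample values left unused numbered 0. Annotation came from GENCODE M21 (GRCm38, the build of mm10), which matched 34490 of 35275 identifiers. Its exon lengths differ from the lengths behind the FPKM values for Rian, Mirg, Meg3, Miat, H19 and Kcnq1ot1, so the authors' gene models were not those of M21 for these genes. RefSeq promoters matched 6 of the 10 members.

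The counts went into edgeR 4.0.16 in R 4.3.3 (filterByExpr, TMM, quasi-likelihood test, no covariate, Benjamini-Hochberg adjustment over all genes at 0.05). The biological coefficient of variation was 0.119. Alternatives were DESeq2 1.42.0, other scalings, other filters, limma 3.58.1 on log2 FPKM (pseudocount 1 or 0.1, mean FPKM of 0.5 or more), a correction of each library for gene length by lowess (span 0.3), and leaving out each library. Each fit except those that left out a library was tested on simulated counts. Each library was taken as 1 mouse.

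The members and all gene lists were chosen with earlier results of these data known, and they give no independent support. Named were all members, called neighbours and the genes that clusters are named for, and, of the other lists, the 3 called genes with the largest fold change in each direction at a mean count of at least 50.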

Additional observations from a re-analysis of the deposited data

How the results depend on the processing

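No paired analysis was possible because the columns give neither the litter nor the sex of a library, and neither was modelled. Over 166 refits of the 8 members' fold changes, 139 kept direction and call, 17 kept direction and lost the call, 9 kept direction and gained a call, and 1 changed sign, Kcnq1ot1 at 0.36 with the length correction. The length correction gave 2105 calls over all genes (3970 without it), 9 among the neighbours, 8 among the other long noncoding RNAs and 6 among the paraspeckle genes. The paraspeckle genes had 7 calls with total count scaling and 6 with limma on log2(FPKM + 1). The cause of these changes was not tested. The split of calls over all genes was 1962 higher and 2008 lower with TMM, 2781 and 1212 with total count scaling, 2670 and 915 with limma on log2(FPKM + 1), and 2614 and 896 with a pseudocount of 0.1. The filter on mean FPKM left out Kcnq1ot1. The ratios that need Sox2ot or Peg13 were not run.

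Leaving out each library in turn gave 8 to 6119 calls over all genes with edgeR and 1974 to 5607 with DESeq2. For members the range was 0 to 6 with edgeR and 1 to 6 with DESeq2. It was 1 to 18 and 4 to 16 for neighbours, 0 to 15 and 6 to 14 for other imprinted genes, 0 to 13 and 9 to 13 for other long noncoding RNAs, and 0 to 8 and 2 to 8 for paraspeckle genes. The log2 differences were 0.59 to 1.002 for Rian to Meg3, 0.18 to 0.31 for Mirg to Meg3, -0.70 to -0.39 for Mirg to Rian, 1.37 to 2.33 for Neat1 to Malat1 and 0.72 to 1.28 for Miat to Malat1. Kcnq1ot1 to Kcnq1 ranged from -0.29 to 0.20 and was above zero without Ctrl library 6 (0.20), Sox2 cKO library 1 (0.03) or Sox2 cKO library 3 (0.13). The share of the library in the members differed by -0.0045 to 0.062 percentage points, the lowest without Ctrl library 2. H19 had 84 counts in its lowest library, the fewest of the 8 members with a row.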

Other observations

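The other long noncoding RNAs listed were called higher more often than lower. This list was chosen with earlier results of these data known, and noncoding genes outside it were not counted. Of 38 listed, 31 had a row and 23 were tested. Of these, 11 were higher and 2 lower, against 12.2% and 12.4% of all genes tested. With the length correction 7 were higher and 1 lower, against 976 and 1129 over all genes. Without Ctrl library 4 or Sox2 cKO library 1 edgeR called 0 of them, and 26 and 8 genes in all. The median log2 fold change with all 6 libraries was 0.304, against 0.018 over all genes. Zfas1, a host of small nucleolar RNAs, had 11.3, 7.44 and 8.40 CPM in Ctrl libraries 2, 4 and 6 and 18.8, 18.6 and 15.0 CPM in Sox2 cKO libraries 1, 3 and 5, without overlap. Its log2 fold change was 0.95 ± 0.16 (SE) with an adjusted p of 0.012 by edgeR. Firre, an X-linked nuclear RNA, had 0.91 ± 0.21 with an adjusted p of 0.017, and Mir22hg, the host of miR-22, had 0.81 ± 0.21 with an adjusted p of 0.025. Gm26917 fell by 0.99 ± 0.22 with an adjusted p of 0.015, and Tug1, a brain-expressed RNA, fell by 0.39 ± 0.10 with an adjusted p of 0.023. With the length correction Tug1 stood at -0.13 with an adjusted p of 0.22, and Mir22hg at 0.61 with 0.066.

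Imprinted genes outside the members' clusters were called in both directions. Of 39 listed, 34 were tested, 2 were higher and 6 lower, against 12.2% and 12.4% of all genes tested. The median log2 fold change of the 34 was 0.009. The balance depended on the scaling, with 6 higher and 3 lower with total count scaling, and 5 higher and 2 lower with limma on log2 FPKM and with the length correction. Gnas, which encodes a stimulatory G protein subunit, had 121.7, 86.3 and 84.9 CPM in Ctrl libraries 2, 4 and 6 and 151.7, 171.0 and 146.6 CPM in Sox2 cKO libraries 1, 3 and 5, with a log2 fold change of 0.68 ± 0.14 (SE) and an adjusted p of 0.013 by edgeR. Nap1l5, for a nucleosome assembly protein, had 0.45 ± 0.12 with an adjusted p of 0.024. Usp29, a gene of the Peg3 cluster, fell by 0.67 ± 0.19 with an adjusted p of 0.029. Ppp1r9a, for the actin-binding protein neurabin, fell by 0.50 ± 0.12 with an adjusted p of 0.020, and Igf2r, the receptor that clears IGF2, fell by 0.43 ± 0.09 with an adjusted p of 0.015. After the length correction Gnas stood at 0.73 and Usp29 at -0.76, both called, while Ppp1r9a stood at -0.14 and Igf2r at -0.08 with adjusted p-values of 0.19 and 0.48.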
